A study of Mus musculus with 36 samples.

Results

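The 10 genes described here encode potassium channel subunits of the heart muscle cell, namely Kcnd2, Kcnd3, Kcnip2, Kcna5, Kcnq1, Kcnh2, Kcnj2, Kcnj3, Kcnj11 and Abcc9. They were chosen by symbol, with earlier results of these data known, and all 10 were found among the 16415 genes of the FPKM table. FPKM is the number of fragments of a gene scaled to transcript length and to the number of mapped fragments of the library, so levels of different genes could be set side by side. The left ventricle of C57BL/6 mice was sequenced after myocardial infarction (MI), made by tying off the left anterior descending coronary artery, or after a sham operation in which the artery was not occluded. All mice were 8-week-old males at surgery. The hearts were taken 1 day, 1 week or 8 weeks after surgery, with 3 mRNA libraries in each of the 6 groups, 18 in all. RNA came from pooled ventricles, and the labels do not say how many animals a library held. The p-values therefore cover the scatter among these libraries alone, and that scatter may be technical. The labels name no transgene and no drug, and infarct and surviving muscle are not given as separate samples. The deposited values are FPKM without counts, so the depth behind each value is unknown.

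Potassium currents return the membrane of the cardiomyocyte to its resting potential after each action potential. In the mouse ventricle the early repolarization is carried mainly by the fast transient outward current, made of Kv4 pore proteins and the calcium-binding partner KChIP2, together with slower Kv currents. Inward rectifiers hold the resting potential, and ATP-sensitive channels open when the energy supply of the cell falls.

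All 10 subunit mRNAs were lower in MI than in sham ventricles at the 1-week stage, and 9 of 10 at each of the other stages. The exceptions were Kcna5 at 1 day and Kcnh2 at 8 weeks, and none of the 10 was higher at any stage. Kcnj3, Kcnd2 and Kcnip2 stood lowest at 1 day, with mean MI levels of 7.22%, 10.6% and 13.1% of the sham mean. A gene was called where the adjusted p of limma on log2(FPKM + 1) was under 0.05 over the 12858 genes tested. Of those genes, 30.6% were lower and 39.7% higher at 1 day, 16.5% lower and 72.8% higher at 1 week, and 10.6% lower and 70.4% higher at 8 weeks. The median log2 fold change of the 10 subunits was -1.61, -1.52 and -0.91 at the 3 stages, beside 0.09, 0.79 and 0.52 for all tested genes. After quantile normalization, which moves these all-gene medians to -0.08, 0.01 and -0.09, the same 9 subunits were lower at 1 day, and all 10 at both later stages. The same held with median-ratio size factors and with the authors' normalized values, which with the quantile values are called the 3 other scalings. In 9 subunits at 1 day (all but Kcna5), in all 10 at 1 week and in 9 at 8 weeks (all but Kcnh2), every MI library was below every sham library. That held for 35.9%, 17.4% and 10.9% of all tested genes, while the reverse order, seen in no subunit, held for 45.4%, 74.8% and 66.3%. The exact permutation test of 3 against 3 libraries cannot go below p = 0.1, and it gave 0.1 for each of these separated comparisons.

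**Figure D1:**
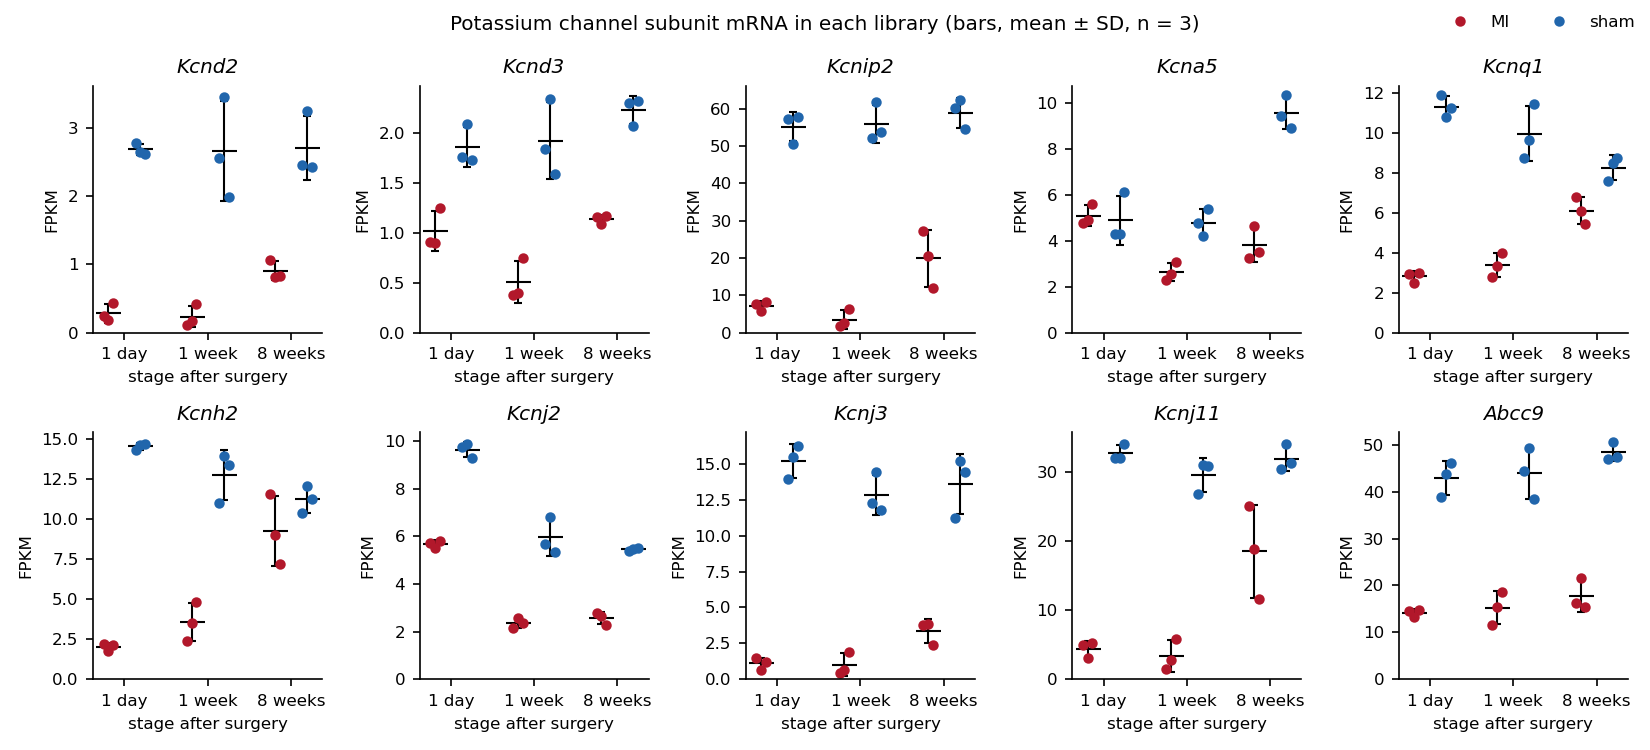
FPKM of the 10 potassium channel subunits in each library at the 3 stages, with MI libraries left of sham libraries (points, libraries; bars, mean ± SD, n = 3). MI and sham points overlap only for Kcna5 at 1 day and Kcnh2 at 8 weeks.

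The mRNA of the muscle cells themselves was also lower in MI. Of 20 cardiomyocyte markers such as Myh6 and Tnnt2, 19, 20 and 12 were lower at the successive stages and none was higher. The count of 12 at 8 weeks was 6 without MI library 3 of that stage, 19 without its MI library 1, and 19 with median-ratio factors. Their summed level was 16118 to 19957 FPKM in MI against 43264 to 46322 FPKM in sham libraries at 1 day. The 1-week sum was 3303 to 10306 FPKM in MI against 46478 to 52362 FPKM in sham. At 8 weeks the MI libraries had 42823, 29341 and 18100 FPKM, against 48882 to 50724 FPKM in sham. No marker of the list was at 0 throughout a group. In bulk tissue, fewer cardiomyocytes and less RNA per cardiomyocyte cannot be told apart. In the opposite direction, 8 of 8 neutrophil markers were higher at 1 day, 9 of 10 fibroblast markers at 1 week, and 10 of 10 fibroblast and 8 of 9 macrophage markers at 8 weeks. MI library 3 at 8 weeks stood apart with the lowest cardiomyocyte level of its group and 1409 FPKM of 6 adipocyte markers, against 27.6 to 34.5 FPKM in sham libraries, and MI library 2 had 339 FPKM. MI library 3 also had 200 FPKM of 6 mesothelial markers, against 13.3 and 26.3 FPKM in MI libraries 1 and 2. Its mean log2(FPKM + 1) of 9 skeletal muscle markers was 4.93, against 2.85 and 2.03, although their sum was highest in MI library 1 (734 against 638 FPKM in library 3). Without library 3 the count of lower subunits at 8 weeks was 8 in place of 9, Kcnj11 being lost. The part of these shifts in the channel results was not tested.

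The fast transient outward current is built from Kv4.2 and Kv4.3, the pore proteins encoded by Kcnd2 and Kcnd3, and from KChIP2, encoded by Kcnip2, which brings Kv4 channels to the membrane and slows their inactivation. Kcnip2 (chr19:45792346-45816422, minus strand, GRCm38.p6) had 7.77, 5.77 and 8.15 FPKM in the MI libraries at 1 day, against 57.3, 50.7 and 57.7 FPKM in sham. At 1 week it had 1.64, 2.59 and 6.29 FPKM in MI, against 52.3, 61.8 and 53.7 FPKM in sham. At 8 weeks it had 27.1, 20.6 and 11.8 FPKM in MI, against 60.1, 62.3 and 54.5 FPKM in sham. The groups did not overlap at any stage, and within MI at 1 week and 8 weeks the library with most cardiomyocyte marker mRNA also had most Kcnip2. The log2 fold changes were -2.78 ± 0.30, -3.79 ± 0.30 and -1.59 ± 0.30 (SE), with limma adjusted p of 4.63e-07, 8.43e-09 and 0.000159. At 1 week the MI mean was 6.26% of the sham mean, the lowest share of the 10 subunits at that stage.

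Kcnd2 was low in all libraries and fell as well. The gene (chr6:21215346-21729805, plus strand) had 0.236, 0.177 and 0.436 FPKM in MI at 1 day, against 2.78, 2.65 and 2.61 FPKM in sham. At 1 week the MI libraries had 0.118, 0.169 and 0.418 FPKM, against 2.56, 3.44 and 1.98 FPKM in sham. At 8 weeks they had 1.06, 0.817 and 0.825 FPKM, against 2.45, 3.24 and 2.42 FPKM in sham. The MI values were below the sham values throughout and were least low at 8 weeks. On the log2 scale MI differed from sham by -1.52, -1.55 and -0.96, each ± 0.14 (SE), with limma adjusted p of 7.32e-08, 3.01e-08 and 1.43e-05, and this scale, log2(FPKM + 1), understates the change of so low a gene. With 1 MI and 9 sham libraries at 1 FPKM or more, Kcnd2 passed the filter on low values through the sham group alone.

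Kcnd3 also fell at each stage, to a mean of 54.7%, 26.4% and 51.0% of sham, beside 10.6%, 8.84% and 33.4% for Kcnd2. The gene (chr3:105451890-105674002, plus strand) had 0.909, 0.901 and 1.25 FPKM in MI at 1 day, against 1.76, 2.1 and 1.73 FPKM in sham. At 1 week the MI libraries had 0.377, 0.402 and 0.748 FPKM, against 1.84, 2.35 and 1.59 FPKM in sham. At 8 weeks they had 1.16, 1.09 and 1.17 FPKM, against 2.31, 2.08 and 2.32 FPKM in sham. The groups were separate at each stage, and the 3 MI libraries at 8 weeks lay close together. The log2 fold changes were -0.51, -0.96 and -0.60, each ± 0.11 (SE), with limma adjusted p of 0.000687, 6.14e-07 and 0.000163. Kcnd3 shares 165 exon bases with its antisense gene Kcnd3os in RefSeq, and whether strand was used in counting is not given in the sources used here, so that reads of the pair cannot be told apart.

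The balance of the Kv4 pore mRNAs was taken as a ratio within each library, which the scaling of a library cannot move. The Kcnd2/Kcnd3 ratio was 0.260, 0.196 and 0.349 in MI at 1 day, against 1.58, 1.26 and 1.51 in sham. At 1 week it was 0.313, 0.421 and 0.559 in MI, against 1.39, 1.47 and 1.25 in sham, and at 8 weeks 0.917, 0.747 and 0.705 in MI, against 1.06, 1.56 and 1.04 in sham. Kcnd2 was the lower of the pair in each MI library and the higher in each sham library. The mean log2 ratio in MI was below that in sham by 2.46, 1.70 and 0.61 at the 3 stages. The Kcnip2/Kcnd3 ratio was 6.40 to 8.55 in MI against 24.2 to 33.3 in sham at 1 day, 4.35 to 8.40 against 26.3 to 33.8 at 1 week, and 10.1 to 23.4 against 23.4 to 30.0 at 8 weeks, where the ranges almost touched. The Kcnip2/Kcnd2 ratio overlapped between MI and sham at 1 day (18.7 to 32.9 against 19.1 to 22.1) and at 8 weeks (14.4 to 25.6 against 19.2 to 24.6), and was 13.9 to 15.3 in MI against 18 to 27.2 in sham at 1 week. For all 27 comparisons of 9 ratios the exact permutation p was 0.1 or more, the smallest that 3 against 3 libraries allow, and 0.123 or more after Benjamini-Hochberg adjustment over the 27.

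**Figure D2:**
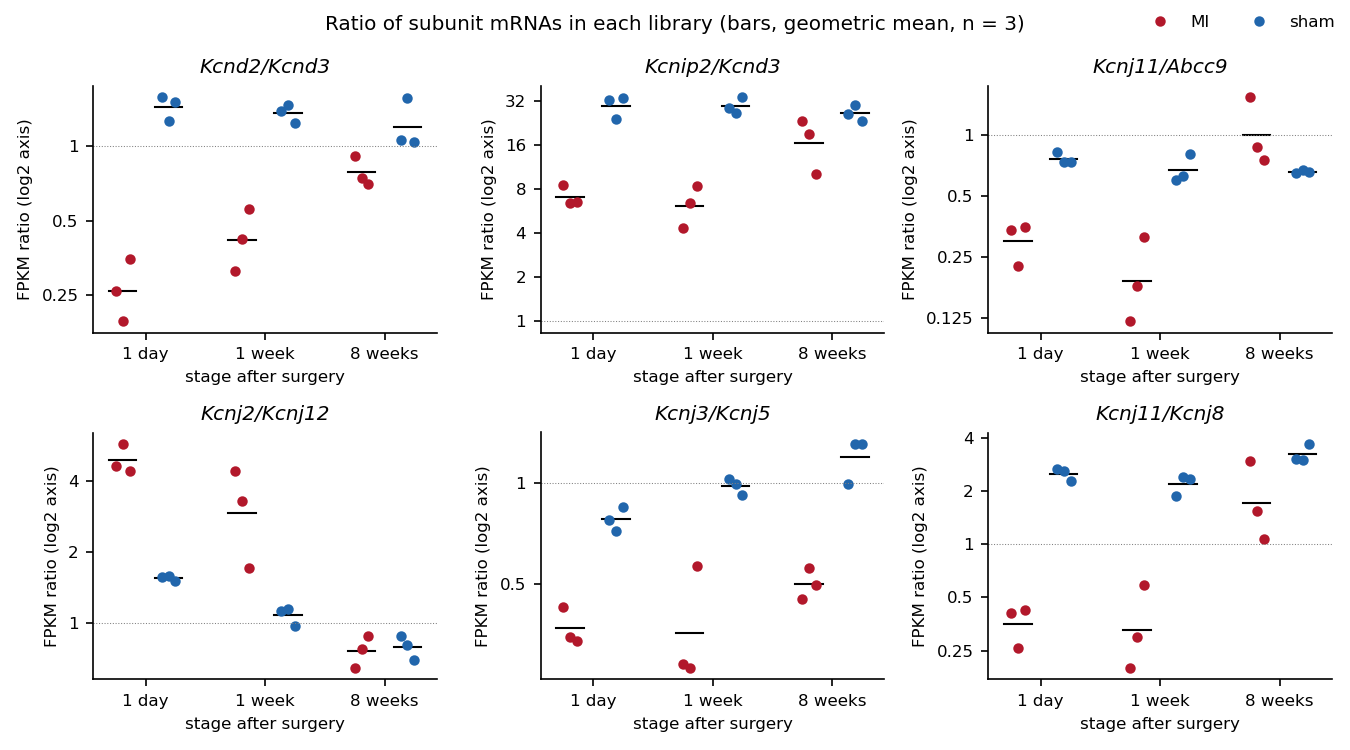
Ratio of the FPKM of paired subunit mRNAs in each library on a log2 axis, with MI left of sham at each stage (points, libraries; bars, geometric mean, n = 3). Kcnd2/Kcnd3 lies below 1 in all 9 MI libraries and above 1 in all 9 sham libraries, and Kcnj11/Abcc9 is below sham at 1 day and 1 week and above it at 8 weeks.

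The promoters of Kcnip2 and Kcnd2, members of 1 current, are shown as examples. Klf15, a Kruppel-like factor known to control Kcnip2 transcription in mice, was also lower in MI, and a link to the channel results was not tested. Each window runs from 250 bases before to 50 bases after the transcription start that the table lists for the gene and comes from RefSeq on GRCm38.p6, the build also called mm10. For Kcnip2, Kcnj3, Abcc9 and Kcnh2 that start lies inside the gene bounds printed here, which span all annotated transcripts of the gene. Kcnip2 lies on the minus strand at chr19:45816014-45816313 and Kcnd2 on the plus strand at chr6:21215096-21215395. Capitals mark CACCC, the core letters that Kruppel-like factors bind, or its reverse complement GGGTG on the other strand.
Kcnip2: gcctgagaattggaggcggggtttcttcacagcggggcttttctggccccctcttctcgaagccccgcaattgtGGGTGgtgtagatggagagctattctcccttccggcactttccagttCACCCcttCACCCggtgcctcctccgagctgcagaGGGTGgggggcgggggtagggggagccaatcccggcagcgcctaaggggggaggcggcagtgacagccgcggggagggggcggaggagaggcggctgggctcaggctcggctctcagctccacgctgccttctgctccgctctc
Kcnd2: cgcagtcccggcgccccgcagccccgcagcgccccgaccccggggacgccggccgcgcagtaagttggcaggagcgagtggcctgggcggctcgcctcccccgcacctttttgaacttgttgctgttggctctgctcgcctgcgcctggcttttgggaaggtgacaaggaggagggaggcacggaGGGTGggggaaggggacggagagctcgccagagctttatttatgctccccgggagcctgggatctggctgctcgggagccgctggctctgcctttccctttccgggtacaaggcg
Kcnip2 holds 4 copies and Kcnd2 holds 1, and the window of Kcnd3 of the same current, not shown, holds 3. Windows were found for 8 of the 10 members, all but Kcnj11 and Kcnq1, and CACCC on either strand was present in 7 of these 8, from 1 to 5 copies, and not in that of Kcnj3. It also stood in 57.7% of 32544 mouse promoter windows of the same length, and a match of letters is not a bound site. The 8 windows had 55.0% to 74.3% GC, against a median of 53.0% over mouse promoter windows, so the shares were not matched for GC. GATAAG, the motif of GATA factors, and TATAAA, the TATA box, searched on both strands, were in none of the 8 windows and in 7.3% and 13.6% of all windows. The motifs do not overlap with each other.

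Kcna5 encodes Kv1.5, the pore of a rapidly activating and slowly inactivating outward current of mouse ventricle and human atrium. At 1 day the gene (chr6:126532551-126535555, minus strand) had 4.76, 4.91 and 5.63 FPKM in MI, against 4.28, 4.28 and 6.12 FPKM in sham. The 1-week values were 2.29, 2.56 and 3.07 FPKM in MI, against 4.76, 4.23 and 5.39 FPKM in sham. The 8-week values were 3.26, 4.66 and 3.51 FPKM in MI, against 9.43, 10.3 and 8.94 FPKM in sham. The groups overlapped at 1 day and were separate afterwards. The log2 difference of 0.06 ± 0.13 (SE) at 1 day did not pass the test (limma adjusted p 0.704, exact permutation p 0.6), and it was below 0 in the 3 other scalings, at -0.06 to -0.21, also without a call. At 1 week and 8 weeks Kcna5 fell by 0.67 and 1.15 on the log2 scale (adjusted p 0.000204 and 2.12e-06). The sham libraries themselves had more Kcna5 at 8 weeks than at 1 day, by 0.86 ± 0.13 log2 (adjusted p 0.00236), a rise called in 0.653% of all genes against 0.459% at 1 week, so that the 8-week difference was measured against a higher sham level.

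The delayed rectifiers Kcnq1, which encodes Kv7.1 of the slow current, and Kcnh2, which encodes ERG1 of the rapid current, were lowest in MI at 1 day and closest to sham at 8 weeks. Kcnh2 (chr5:24319589-24351684, minus strand) had 2.17, 1.74 and 2.15 FPKM in MI at 1 day, against 14.3, 14.6 and 14.7 FPKM in sham. At 1 week it had 2.39, 3.49 and 4.81 FPKM in MI, against 11, 14.0 and 13.4 FPKM in sham. At 8 weeks it had 11.6, 9.04 and 7.18 FPKM in MI, against 10.4, 12.1 and 11.2 FPKM in sham. The groups were far apart at the first stages, and at 8 weeks MI library 1, which had the most cardiomyocyte marker mRNA of its group, lay within the sham range. On the log2 scale MI differed from sham by -2.37, -1.62 and -0.28, each ± 0.17 (SE), with limma adjusted p of 6.1e-09, 1.93e-07 and 0.142. The 8-week difference passed the test without MI library 1 (-0.43, limma adjusted p 0.0238), was smaller without MI library 3 (-0.12, limma adjusted p 0.515), and passed in the 3 other scalings (-0.84 to -0.92, limma adjusted p 0.00112 to 0.00366).

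Kcnq1 (chr7:143106877-143427050, plus strand) averaged 2.81 ± 0.265 FPKM in MI and 11.3 ± 0.541 FPKM in sham at 1 day (SD, n = 3 each). At 1 week it averaged 3.37 ± 0.611 FPKM in MI and 9.96 ± 1.38 FPKM in sham. The 8-week values were 6.78, 6.10 and 5.46 FPKM in MI, against 7.59, 8.48 and 8.74 FPKM in sham, a small gap without overlap. The log2 fold changes were -1.69, -1.33 and -0.38, each ± 0.11 (SE), with limma adjusted p of 3e-09, 2.18e-08 and 0.0058. Its accessory subunit Kcne1 was at most 1.59 FPKM in all libraries. It was lower at 1 day and 1 week (-0.50 and -0.55) and not called at 8 weeks (0.15, adjusted p 0.216), but was below 0 in the 3 other scalings (-0.22 to -0.55), with a call in all but the median-ratio one. The Kcnq1/Kcne1 ratio overlapped between MI and sham at 1 day (8.09 to 16.0 against 12.5 to 18) and 1 week (5.06 to 8.83 against 7.50 to 8.69), and was 4.26 to 6.10 in MI against 6.90 to 9.23 in sham at 8 weeks. Kcnq1 shares 125 exon bases with the antisense Kcnq1ot1, whose reads cannot be told apart here.

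Kcnj2 encodes Kir2.1, the main pore of the inward rectifier that sets the resting potential of ventricular cells. At 1 day the gene (chr11:111066164-111076825, plus strand) had 5.74, 5.50 and 5.80 FPKM in MI, against 9.77, 9.90 and 9.28 FPKM in sham. The 1-week values were 2.16, 2.58 and 2.36 FPKM in MI, against 5.70, 6.83 and 5.34 FPKM in sham. At 8 weeks it had 2.76, 2.65 and 2.26 FPKM in MI, against 5.39, 5.48 and 5.51 FPKM in sham. Libraries of a group lay close together, and MI was lower at every stage. On the log2 scale MI differed from sham by -0.67, -1.04 and -0.86, each ± 0.09 (SE), with limma adjusted p of 3.37e-06, 1.44e-08 and 3.94e-07. Sham ventricles also had less Kcnj2 at 1 week and 8 weeks than at 1 day, by -0.62 and -0.72 log2 (adjusted p 0.000927 and 0.000373), a fall called in 0.957% and 2.12% of all genes. After quantile normalization the 1-week sham difference was not called (-0.53, limma adjusted p 0.0554). The second inward rectifier gene, Kcnj12 of Kir2.2, fell as well, by 1.73, 1.81 and 0.86 on the log2 scale. The Kcnj2/Kcnj12 ratio was 4.63, 5.73 and 4.39 in MI against 1.57, 1.59 and 1.51 in sham at 1 day, and 4.41, 3.27 and 1.71 against 1.12, 1.15 and 0.975 at 1 week. The 8-week ratio was 0.648 to 0.881 in MI and 0.699 to 0.880 in sham, and the groups overlapped.

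Kcnj3 encodes Kir3.1 (GIRK1), which forms the acetylcholine-activated channel with Kir3.4, the product of Kcnj5, and is best known from atrial and nodal cells. The gene (chr2:55411798-55598145, plus strand) had 1.46, 0.658 and 1.18 FPKM in MI at 1 day, against 14.0, 15.5 and 16.3 FPKM in sham. At 1 week it had 0.443, 0.628 and 1.92 FPKM in MI, against 12.3, 14.4 and 11.8 FPKM in sham. The 8-week values were 3.77, 3.84 and 2.36 FPKM in MI, against 11.3, 15.2 and 14.5 FPKM in sham. Every MI value was far under every sham value, and the mean MI level stood at 7.22%, 7.77% and 24.4% of sham. The log2 fold changes were -2.97, -2.86 and -1.77, each ± 0.22 (SE), with limma adjusted p of 1.1e-08, 8.95e-09 and 4.42e-06. The partner Kcnj5 fell too, by 2.41, 2.09 and 0.71 on the log2 scale (adjusted p 3.66e-08, 8.79e-08 and 0.00458). The Kcnj3/Kcnj5 ratio was 0.340 to 0.427 in MI against 0.722 to 0.849 in sham at 1 day, 0.282 to 0.568 against 0.922 to 1.03 at 1 week and 0.452 to 0.557 against 0.995 to 1.31 at 8 weeks. Of 5 tested atrial markers 1, 3 and 5 were higher and 1, 1 and 0 lower at the 3 stages in turn.

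The ATP-sensitive channel of ventricular muscle joins the pore Kir6.2, encoded by Kcnj11, to the sulfonylurea receptor SUR2, encoded by Abcc9, which is also made in smooth muscle and pericytes together with the pore Kir6.1 of Kcnj8. Kcnj11 (chr7:46097123-46100952, minus strand) had 4.96, 2.99 and 5.17 FPKM in MI at 1 day, against 32.0, 32.1 and 34.1 FPKM in sham. The 1-week values were 1.40, 2.78 and 5.88 FPKM in MI, against 26.8, 31.0 and 30.9 FPKM in sham. At 8 weeks it had 25.0, 18.9 and 11.6 FPKM in MI, against 30.5, 34.0 and 31.4 FPKM in sham. The gap narrowed at 8 weeks without overlap, and the order of the MI libraries there was that of their cardiomyocyte marker level. On the log2 scale MI differed from sham by -2.68, -2.94 and -0.82, each ± 0.30 (SE), with limma adjusted p of 8.04e-07, 1.4e-07 and 0.0197. The 8-week call was lost without MI library 3 (-0.53, limma adjusted p 0.113) and without sham library 2 (-0.77, limma adjusted p 0.0529).

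Abcc9 was nearly equally low at all 3 stages. The gene (chr6:142587862-142702766, minus strand) had 14.6, 13.2 and 14.7 FPKM in MI at 1 day, against 38.9, 43.7 and 46.1 FPKM in sham. At 1 week it had 11.6, 15.4 and 18.6 FPKM in MI, against 44.4, 49.4 and 38.4 FPKM in sham. The 8-week values were 16.2, 21.5 and 15.3 FPKM in MI, against 47.1, 50.7 and 47.5 FPKM in sham. The MI mean was 33.1%, 34.6% and 36.6% of sham at the 3 stages, and the groups stayed well apart. The log2 fold changes were -1.53, -1.49 and -1.42, each ± 0.15 (SE), with limma adjusted p of 1.48e-07, 9.99e-08 and 5.86e-07. Abcc9 shares 158 exon bases with the gene 5330439B14Rik on the other strand, whose reads cannot be told apart. The Kcnj11/Abcc9 ratio was 0.339, 0.225 and 0.352 in MI against 0.823, 0.736 and 0.739 in sham at 1 day, and 0.120, 0.180 and 0.315 against 0.604, 0.628 and 0.806 at 1 week. At 8 weeks it was 1.54, 0.877 and 0.755 in MI against 0.648, 0.671 and 0.661 in sham, so that MI stood above sham in every library. Kcnj8 was not called at 1 day or 8 weeks (-0.11 and 0.06, adjusted p 0.477 and 0.675) and was lower at 1 week (-0.58, adjusted p 0.000952), while in the 3 other scalings its 8-week value was below 0 and called lower (-0.51 to -0.59). The Kcnj11/Kcnj8 ratio was 0.259 to 0.424 in MI against 2.27 to 2.69 in sham at 1 day, 0.199 to 0.588 against 1.88 to 2.40 at 1 week, and 1.07 to 2.98 against 3.02 to 3.72 at 8 weeks. The summed level of 8 pericyte markers, Kcnj8 among them, was 86.0 to 98.7 FPKM in MI against 140 to 192 FPKM in sham at 1 day. It was 288 to 307 against 138 to 179 at 1 week, and 110 to 189 against 131 to 161 at 8 weeks. The single markers were split, with 2, 4 and 4 of the 8 called higher and 4, 2 and 1 lower at the 3 stages. The summed level of 7 smooth muscle markers, Des among them, was 519 to 614 FPKM in MI against 452 to 536 FPKM in sham at 1 day. It was 962 to 1331 against 422 to 464 at 1 week, and 776 to 1019 against 449 to 487 at 8 weeks. Of the 7, 0, 6 and 6 were called higher and 4, 0 and 0 lower. At 1 day their mean log2(FPKM + 1), unlike the sum, was lower in MI, at 3.17 to 3.44 against 3.68 to 3.81 in sham. The part of either cell type in the Abcc9 values was not tested.

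**Figure D3:**
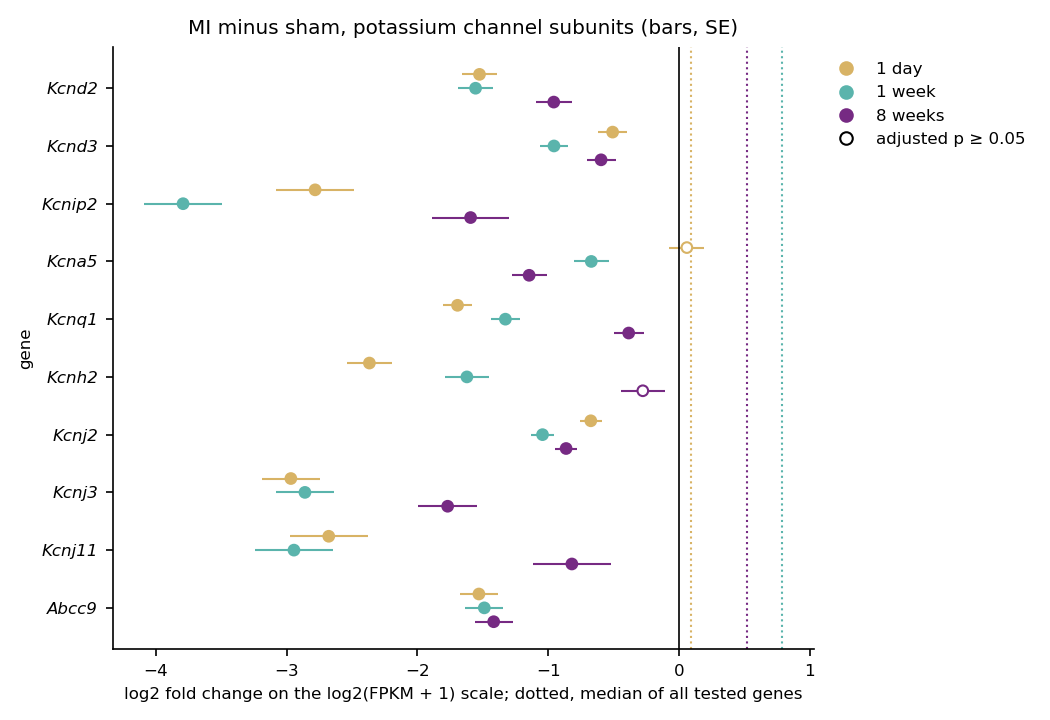
Log2 fold change of the 10 subunits, MI minus sham, on the log2(FPKM + 1) scale at 3 stages (points, estimates; bars, SE; open points, limma adjusted p of 0.05 or more; dotted lines, median of all tested genes). Kcnj3, Kcnip2 and Kcnj11 lie furthest left at 1 day and 1 week, and Kcna5 alone moves further left with each stage. Its step from 1 week to 8 weeks was not called (-0.48, limma adjusted p 0.0511), and its sham level was higher at 8 weeks.

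The change in MI differed between stages for 9 of the 10 subunits in at least 1 of 3 stage comparisons, and for Abcc9 in none of them. The share of all genes called in at least 1 of them was not counted, but each comparison called many genes, as given next. From 1 week to 8 weeks the fold change moved up, that is towards sham, for Kcnip2, Kcnj11, Kcnh2, Kcnj3, Kcnq1 and Kcnd2, 6 of 10, beside 17.1% of all genes, and down for none, beside 29.9%. The call of Kcnd2 among these was lost in the 3 other scalings (0.31 to 0.50) and without MI library 1 or sham library 2 of 1 week. From 1 day to 8 weeks it moved up for the same 6, beside 51.8% of all genes, and down for Kcna5, beside 11.9%. From 1 day to 1 week it moved down for Kcnip2, Kcna5, Kcnd3 and Kcnj2, beside 11.8%, and up for Kcnh2, beside 60.0% of all genes. These stage comparisons share libraries. In the 3 other scalings the 8-week against 1-day moves of Kcnd2, Kcnip2 and Kcnj3 were not called (after quantile normalization 0.00, 0.86 and 0.64, limma adjusted p 0.997, 0.145 and 0.114), nor was the 1-week against 1-day move of Kcnh2 (0.04, limma adjusted p 0.928). Kcnd3 and Kcnj2 were instead called to move down from 1 day to 8 weeks in these scalings. The move of Kcnip2 from 1 day to 1 week (-1.01 ± 0.42 SE, limma adjusted p 0.0403) was lost when any of 10 of the 12 libraries of these stages was left out, all but MI library 2 of 1 day and MI library 3 of 1 week. That of Kcnd3 (-0.45, limma adjusted p 0.0179) was lost without MI library 3 of 1 day, MI library 1 of 1 week or sham library 2 of 1 week.

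Measured against the cardiomyocyte markers of the same library in place of all mRNA, the subunits differed in direction, as did the markers themselves. Of the 20 markers, 4, 7 and 1 were called higher and 4, 8 and 4 lower at the 3 stages. The mean of these markers is the reference itself, so they must lie on both sides of it. Their split is therefore no comparison for the subunits, and the spread of the subunits is not read as particular to them. This scale takes the log2(FPKM + 1) of a gene minus the mean of the 20 markers, and most genes rise on it, 82.1%, 98.2% and 83.8% at the 3 stages, while 0.669%, 0.257% and 0.241% fall. Kcnip2 was lower than sham on this scale too at each successive stage (-1.33, -0.87 and -0.75, each ± 0.31 SE, limma adjusted p 0.000289, 0.00773 and 0.0245), although the 8-week call was lost when any MI library, sham library 1 or sham library 2 of that stage was left out (limma adjusted p up to 0.0808). Kcnj3, Kcnj11 and Kcnh2 were lower at 1 day, by -1.52, -1.23 and -0.92, and Kcnj3 again at 8 weeks, by -0.93 (limma adjusted p 0.0157), a call lost without MI library 1 or sham library 2. Kcna5 was higher at 1 day and 1 week, by 1.51 and 2.25, and Kcnd3 by 0.94 and 1.97, its 1-day call being lost without MI library 2 or 3 or sham library 1 or 3 (0.87 to 0.94, limma adjusted p 0.0545 to 0.076). At 1 week Kcnj2, Kcnq1, Abcc9, Kcnd2 and Kcnh2 were higher as well, by 1.88, 1.60, 1.44, 1.37 and 1.30. The marker mean fell at 1 week by more than the whole sham log2(FPKM + 1) of Kcnd2, Kcnd3, Kcna5 and Kcnj2. Their differences there would be positive even without any mRNA in MI, so the direction of these results carries no information. For low genes this scale depends on the constant added before the log: with 0.1 in place of 1, Kcnd2 at 1 week turned to -0.16 without a call, Kcnd3 at 1 day was not called (0.64, limma adjusted p 0.124), and Kcnj3 at 1 week, at 0.06 before, was lower at -0.85.

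**Figure D4:**
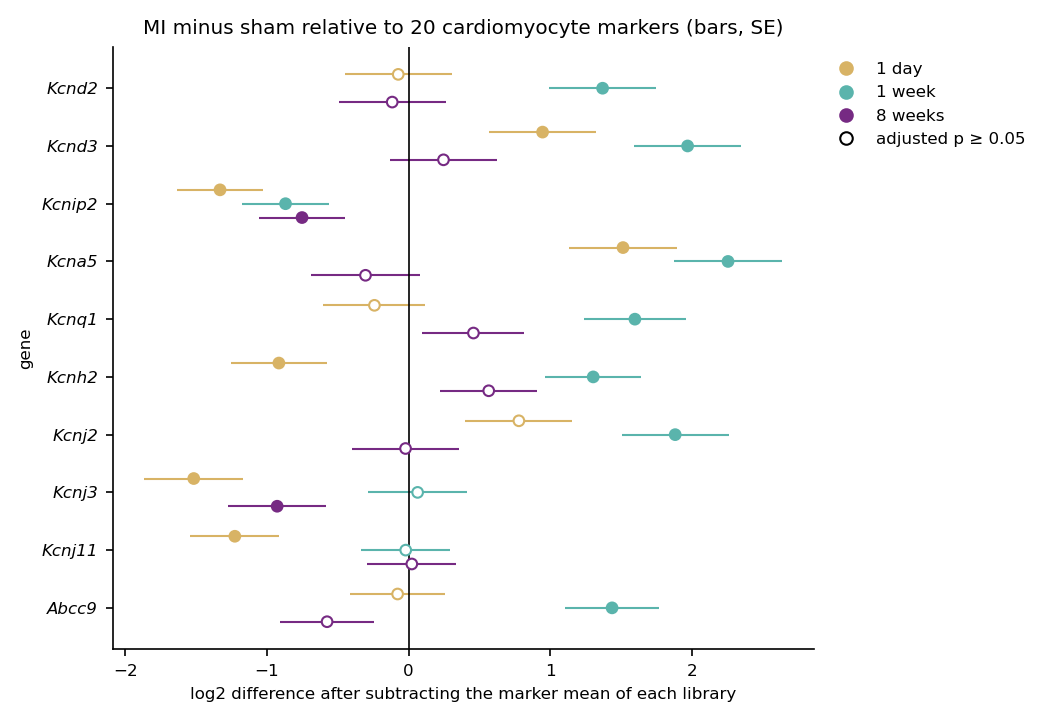
MI minus sham difference of the 10 subunits after subtracting the mean log2(FPKM + 1) of 20 cardiomyocyte markers in each library (points, estimates; bars, SE; open points, limma adjusted p of 0.05 or more). Kcnip2 lies left of 0 at all 3 stages, and 7 subunits are called right of 0 at 1 week. Of these, Kcnd2, Kcnd3, Kcna5 and Kcnj2 could not lie left of 0 at 1 week, because the marker mean fell by more than their whole sham value.

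The order of the levels differed between the groups. In all sham groups Kcnip2 was highest, at 55.2 ± 3.93, 55.9 ± 5.11 and 59.0 ± 4.04 FPKM (SD, n = 3) at the 3 stages, followed by Abcc9 and Kcnj11, with no overlap between these neighbours. Kcnd2 and Kcnd3 were lowest, and Kcnj3 and Kcnh2 overlapped in each sham group. In MI at 1 day and 1 week Abcc9 was highest, at 14.2 ± 0.820 and 15.2 ± 3.51 FPKM. At 1 week 6 others, Kcnh2, Kcnip2, Kcnq1, Kcnj11, Kcna5 and Kcnj2, lay between 2.37 and 3.56 FPKM on average with overlapping neighbours. In MI at 8 weeks Kcnip2, Kcnj11 and Abcc9, at 19.9 ± 7.68, 18.5 ± 6.75 and 17.7 ± 3.37 FPKM, overlapped at the top.

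Over the 18 libraries the subunits varied together, with Pearson r of 0.362 to 0.985 and a median of 0.895 over 45 pairs. The libraries share the contrast of MI and sham, so r is a description. Kcna5 and Kcnj2 stood furthest from the others, at 0.362 to 0.740 and 0.417 to 0.706. Among genes outside the group with a mean of at least 5 FPKM, the closest to Kcnip2 were Ogdh and Pdk2 (r 0.997 and 0.996), enzyme genes of the citric acid cycle and of pyruvate dehydrogenase control. Those closest to Kcnj11 were Ank1 and Pln, the membrane anchor ankyrin 1 and the inhibitor of the sarcoplasmic calcium pump (both r 0.997). Kcnd3 was closest to Ryr2, the calcium release channel, and to Trap1 (0.965 and 0.964), Kcnd2 to Pdss2 and Fyco1 (0.984 and 0.982), and Kcnj3 to Asb15 (0.990). For Kcnq1 they were Slc25a42 and Nudt7 (0.989 and 0.988), for Kcnh2 Rbpms2 and Pygb (0.990 and 0.990), and for Abcc9 Ppip5k2 and Prepl (0.980 and 0.974). The nearest genes of Kcnj2, Inpp4b and Homer1 (0.941 and 0.909), and of Kcna5, Mcf2l and Nt5dc3 (0.897 and 0.893), were less close.

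Other potassium channel genes moved in both directions. Of 63 listed, 52 were in the table and 28 passed the filter, of which 13 were lower and 8 higher at 1 day, 12 lower and 15 higher at 1 week, and 10 lower and 14 higher at 8 weeks. The shares of all tested genes were 30.6%, 16.5% and 10.6% lower and 39.7%, 72.8% and 70.4% higher at these stages. On the log2(FPKM + 1) scale the largest fall among the 28 was that of Kcnk3, the background channel TASK-1, which had 9.18, 5.37 and 9.64 FPKM in MI against 59.3, 55.7 and 56.0 FPKM in sham at 1 day. Its log2 fold changes were -2.71, -2.78 and -1.20 (limma adjusted p 9.85e-08, 3.8e-08 and 0.000433), next to Kcnj5 above, Kcnj12 (-1.73, -1.81 and -0.86) and Kcng2, a silent Kv subunit (-1.24, -1.91 and -0.71). As a share of sham, Kcnk3 averaged 14.1%, 13.6% and 43.5%, and 2 genes of lower level, singled out after their values were seen, stood lower at 1 day, Kcnv2 at 4.67% and Kcnn2 at 7.83%. Kcnv2 had at most 0.264 FPKM in any MI library and passed the filter on low values through sham libraries alone. Its share rests on very low MI values. On the log2 scale the largest rises belonged to genes that were low in sham. Kcne4, an accessory subunit that inhibits Kv channels, had 26.7, 24.8 and 24.2 FPKM in MI against 1.68, 1.38 and 1.57 FPKM in sham at 1 week, with log2 fold changes of 2.34, 3.37 and 2.67 at the 3 stages. Kcnj15, the inward rectifier Kir4.2, had 52.1, 47.2 and 34.6 FPKM in MI against 0.630, 0.505 and 0.692 FPKM in sham at 1 week, a log2 fold change of 4.81, beside 2.19 at 8 weeks and 0.80 at 1 day, where the call (limma adjusted p 0.0357) was lost on leaving out any library of that stage. Kcnn4, the calcium-activated channel of immune and stromal cells, rose by 0.96, 2.95 and 2.02, and at 1 day Kcne3 and Kcnab2, accessory subunits, by 1.82 and 1.42. Every gene counted as higher above, except Kcne4 and Kcnk6, had all sham libraries below 1 FPKM. Those genes, Kcnj15, Kcnn4, Kcne3 and Kcnab2 among them, passed the filter on low values through MI libraries alone. The counts of higher genes therefore depend on the filter. None of the 10 subunits shared in these rises. In the other scalings the counts were 13 or 14 lower and 8 higher at 1 day, 13 or 14 lower and 12 or 13 higher at 1 week, and 12 to 14 lower and 8 to 12 higher at 8 weeks.

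**Figure D5:**
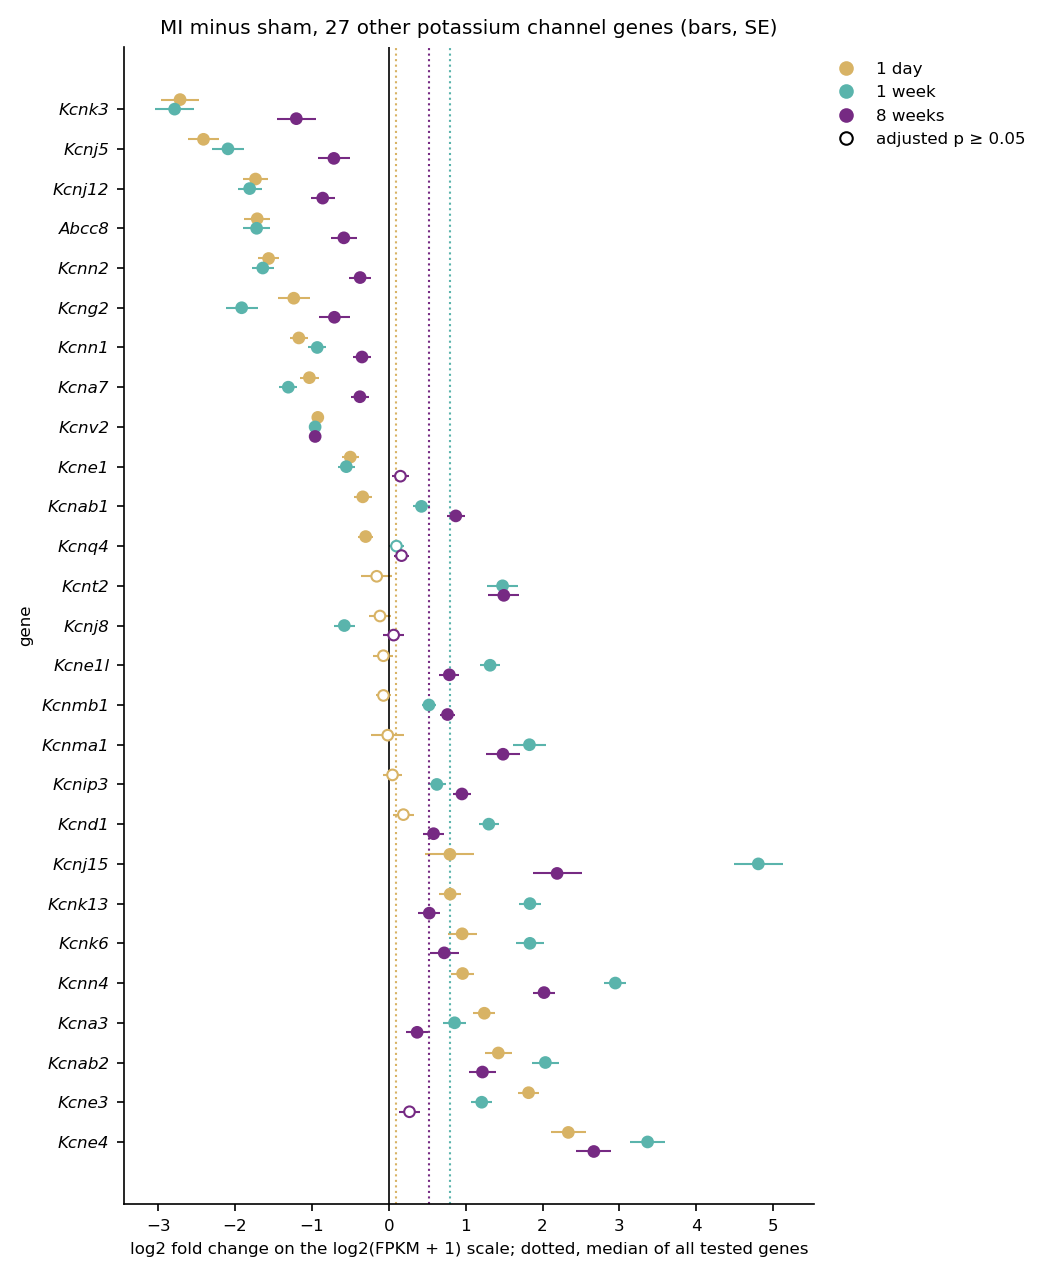
Log2 fold change of 27 of the 28 other potassium channel genes, MI minus sham, on the log2(FPKM + 1) scale at 3 stages, sorted by the 1-day value (points, estimates; bars, SE; open points, limma adjusted p of 0.05 or more; dotted lines, median of all tested genes). Kcnk3 and Kcnj5 are furthest left at 1 day and 1 week, and Kcne4 and, at 1 week, Kcnj15 furthest right.

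Among 13 genes that act on these channels, 9, 8 and 3 were lower and 0, 5 and 4 higher at the successive stages. Of all tested genes, 30.6%, 16.5% and 10.6% were lower and 39.7%, 72.8% and 70.4% higher. Without sham library 2 of 8 weeks the 3 lower of the 13 at that stage were 1. The counts depend on the scaling, and in the 3 others 9 to 11, 10 or 11, and 11 were lower and 0, 1 and 0 higher. Klf15 had 2.78, 1.93 and 3.33 FPKM in MI at 1 day, against 11.5, 11.9 and 11.8 FPKM in sham. The 1-week values were 2.69, 1.82 and 3.01 FPKM in MI, against 8.99, 12.3 and 8.61 FPKM in sham. At 8 weeks it had 10.7, 12 and 16.0 FPKM in MI, against 16.4, 19.7 and 18.3 FPKM in sham. The groups were apart at each stage, most at the early ones. The log2 fold changes of Klf15 were -1.81, -1.65 and -0.48, each ± 0.17 (SE), with limma adjusted p of 1.45e-07, 2e-07 and 0.019, and the 8-week call was lost without MI library 1, MI library 2 or sham library 2 (limma adjusted p up to 0.074). Irx4, a ventricular homeobox factor, fell by 2.22 and 1.95 at 1 day and 1 week, and the related Irx3 and Irx5, known from mice to shape the transmural Kv4.2 gradient, fell by 0.77 and 1.30 and by 0.71 and 0.79. The cardiac factors Tbx5 (-0.92 and -1.20) and Gata4 (-0.89 and -0.69) fell at the same stages. None of these 5 factors was called at 8 weeks, with values of -0.31 to 0.11, but each was called lower there in the 3 other scalings (-0.42 to -0.97). Ank2, the membrane adaptor ankyrin B, fell at all 3 stages (-1.74, -1.17 and -0.60), and Cav3, the muscle caveolin, at 1 week and 8 weeks (-1.88 and -0.51), the last lost without MI library 3 (-0.28, limma adjusted p 0.155) or sham library 2. Nfatc3, a calcineurin target, rose by 1.49 at 1 week, and its value of 0.59 at 8 weeks turned to -0.01 to -0.06 in the other scalings. Mef2c and Dlg1, lower at 1 day (-0.89 and -0.28), and Akap9 and Nedd4l, not called at 1 day (-0.05 and 0.03), were called higher at 1 week (0.57, 0.61, 0.70 and 0.32), a direction that turned below 0 in the 3 other scalings. At 8 weeks Dlg1 and Nedd4l (0.27 and 0.26) turned below 0 in the same way, and Mef2c (0.71) was not called in them (0.07 to 0.11).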

How the data were processed

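Total RNA of pooled left ventricles was sequenced in 18 mRNA libraries, 3 for MI and 3 for sham at each of 3 stages, grouped by their labels. The authors deposited FPKM per gene made, per the submitters' processing notes, with TopHat2 2.0.13, Bowtie2 2.2.3 and Cufflinks 2.2.1 on mm10, together with a normalized log2 column for each library. Their columns of fold changes and p-values were not used, and the small RNA libraries were not used here. No counts were given, so depth is unknown, and no library was a copy of another (highest correlation 0.9973). FPKM is a share of all mRNA, so an abundant new transcript lowers every other value.

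FPKM was taken as log2(FPKM + 1), and 12858 of 16415 genes with at least 1 FPKM in 3 or more libraries were tested with limma 3.58.1 in R 4.3.3, with an intensity trend, 1 model over 6 groups (12 residual degrees of freedom) and Benjamini-Hochberg adjustment over all tested genes at 0.05. Stage differences were contrasts of MI minus sham changes. For the comparison relative to cardiomyocytes, the mean of 20 marker genes was subtracted in each library. Ratios were compared with two-sided exact permutation tests (SciPy 1.17.1). The limma fit of MI minus sham at 1 day was tried on simulated data. The 10 members and all gene lists were chosen with earlier results of these data known. Named other channels were partners of a member and, at each stage, the 3 called rises and 3 called falls of largest size among genes averaging 1 FPKM or more, and the 2 genes closest to each member were taken from genes with a mean of at least 5 FPKM. Alternatives were a pseudocount of 0.1, no filter or a mean of at least 5 FPKM, quantile normalization, median-ratio factors (0.76 to 1.62), the authors' normalized values, a model of each stage alone, a replicate block, a fit without the trend, an 8-gene reference and leaving out each library. Results of 2 genes, with 1 of the 9 ratios, are counted in totals but not reported here.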

Additional observations from a re-analysis of the deposited data

Results flagged for a closer look

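The MI minus sham change differed between stages in 18 comparisons of 9 subunits by limma's test of the difference itself (log2 units, adjusted over 12858 genes). Between 1 week and 8 weeks it was higher at 8 weeks for Kcnip2 by 2.2 (adjusted p 0.000844), Kcnj11 by 2.13 (0.00114), Kcnh2 by 1.35 (0.000547), Kcnj3 by 1.09 (0.0114), Kcnq1 by 0.94 (0.000406) and Kcnd2 by 0.60 (0.0201). Between 1 day and 8 weeks it was higher at 8 weeks for Kcnh2 by 2.09 (2.72e-06), Kcnj11 by 1.86 (0.00129), Kcnq1 by 1.31 (5.24e-06), Kcnj3 by 1.20 (0.00388), Kcnip2 by 1.19 (0.0211) and Kcnd2 by 0.57 (0.018). Kcna5 differed the other way between these stages, by -1.21 (5.78e-05), while its sham mean went from 4.90 to 9.57 FPKM and its MI mean from 5.10 to 3.81 FPKM. Between 1 day and 1 week it was lower at 1 week for Kcnip2 by -1.01 (0.0403), Kcna5 by -0.73 (0.00296), Kcnd3 by -0.45 (0.0179) and Kcnj2 by -0.37 (0.0127), and higher for Kcnh2 by 0.75 (0.0112). Over all tested genes, 17.1% were called higher and 29.9% lower between 1 week and 8 weeks. The shares were 51.8% and 11.9% between 1 day and 8 weeks, and 60.0% and 11.8% between 1 day and 1 week. The count of 18 is therefore not read as particular to the subunits. Over all genes the median of these 3 differences was -0.20, 0.43 and 0.56, and the summed level of cardiomyocyte markers in MI moved between the stages as well. Its part in these differences was not tested.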

How the results depend on the processing

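Depth is unknown, groups hold 3 libraries, and infarct size was not analysed here. The 9, 10 and 9 lower calls of MI against sham stayed within 1.5 times the given count in all alternatives. With a mean of at least 5 FPKM the counts were smaller because Kcnd2 and Kcnd3 were not tested. Without 1 library the 8-week count was 8 to 10, as named for Kcnj11 and Kcnh2.

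Kcna5 at 1 day was 0.06 and turned to -0.20 with quantile normalization, -0.055 with median-ratio factors and -0.21 with the authors' values, and lay between -0.011 and 0.20 when 1 library was left out. In the same 3 scalings, in that order, the 1-week values turned to -0.17, -0.094 and -0.17 for Akap9, -0.10, -0.30 and -0.10 for Dlg1, -0.24, -0.31 and -0.25 for Mef2c, and -0.54, -0.37 and -0.53 for Nedd4l. The 8-week values turned to -0.25, -0.41 and -0.26 for Dlg1, -0.47, -0.22 and -0.46 for Nedd4l, and -0.058, -0.011 and -0.058 for Nfatc3. The cause was not tested. With a pseudocount of 0.1, Kcnd2 relative to cardiomyocyte markers at 1 week was -0.16 and the log2 Kcnip2/Kcnd2 difference at 1 day -0.013. Without 1 library the Kcnip2/Kcnd2 difference ranged from -0.21 to 0.21 at 8 weeks and Kcnj2/Kcnj12 from -0.16 to 0.067.

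Of stage differences, the 1 higher call of 1 week minus 1 day became 2 with a pseudocount of 0.1 and 0 in each of the 3 scalings (1 to 2 without 1 library, 2 without MI 1 week 1, sham 1 week 3, MI 8 weeks 1 or MI 8 weeks 3), and the 4 lower calls 2 to 4 (2 without MI 1 day 3, MI 1 week 1 or sham 1 week 2). The 6 higher and 1 lower calls of 8 weeks minus 1 day became 3 and 3 in each of the 3 scalings. The 0 lower calls of 8 weeks minus 1 week became 1 with no intensity trend (0 to 1 without 1 library, 1 without sham 1 day 3, MI 1 week 1, sham 1 week 3 or MI 8 weeks 2). Relative to cardiomyocyte markers, the 2 higher calls at 1 day became 1 with a pseudocount of 0.1, a mean of at least 5 FPKM or the 8-gene reference (1 to 2 without 1 library, 1 without MI 1 day 2 or 3 or sham 1 day 1 or 3), the 1 lower call at 1 week became 2 with a pseudocount of 0.1, and the 2 lower calls at 8 weeks 0 to 2 without 1 library (0 without MI 8 weeks 1 or sham 8 weeks 2, 1 without MI 8 weeks 2 or 3 or sham 8 weeks 1). A mean of at least 5 FPKM left 5607, 6572 and 5936 genes called at the 3 stages, against 9046, 11489 and 10414, because fewer genes were tested. Kcnd2 and Kcnd3 were not tested there, so the higher call of Kcnd3 relative to cardiomyocyte markers at 1 day left with the gene.

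Same-numbered MI and sham libraries did not deviate together (r 0.17, 0.01 and 0.05 at the first stage, 0.29, -0.09 and 0.08 at the second, 0.03, 0.04 and 0.05 at the last), so the numbers pair nothing. With the replicate block no subunit call of MI against sham changed. The block gave 2 higher calls for 1 week minus 1 day, 1 lower call for 8 weeks minus 1 week and 1 lower call relative to cardiomyocyte markers at 8 weeks.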
